A study of Homo sapiens with 11 samples.

Results

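The cytosolic ribosomal protein genes encode the proteins of the large and the small subunit of the ribosome that translates messenger RNAs in the cytosol. Members were chosen by name alone, as every gene called RPL or RPS with a number and at most a paralogue letter, with RPSA, RPLP0, RPLP1, RPLP2 and FAU added and pseudogenes and RPS6 kinases left out. This gave 87 of 38021 genes, 52 of the large and 35 of the small subunit. Of the 87, 83 passed the filter on low counts and were tested, 50 of the large and 33 of the small subunit. The other 4 are paralogues known from other tissues or from the Y chromosome: RPL3L reached at most 15 counts in a library, RPL10L at most 1, and RPS4Y1 and RPS4Y2 had none.

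Each ribosomal subunit is a scaffold of ribosomal RNA to which the ribosomal proteins bind in a fixed order in the nucleolus and later in the cytosol. Most of their messages start with a terminal oligopyrimidine (TOP) run, a C at the cap followed by further C and T, through which mTOR signalling and the RNA-binding protein LARP1 govern their translation and storage. The messages are short, abundant and stable, and the human genome holds many processed pseudogenes copied from them. Stress of the endoplasmic reticulum (ER) is known for slowing translation through phosphorylation of eIF2alpha, which acts on protein synthesis rather than on the level of a message.

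RNA was sequenced from HEK293T, an established human embryonic kidney line, of wild-type genotype throughout, 6 h after treatment. The 11 conditions were vehicle (0.1% DMSO), thapsigargin (Tg, spelled Thapsigargain in the labels) at 500 nM, the compound AA147 at 10 µM, and the compound AA132 at 0.1, 0.3, 1, 3, 6, 10, 15 and 30 µM. Tg blocks the SERCA calcium pump of the ER and is a standard trigger of ER stress. AA147 and AA132 belong to the small molecules that act on the folding capacity of the ER. Each condition has 3 numbered libraries, and the labels do not say whether these are separate cultures, so that p-values measure only the spread between these libraries, which may be technical.

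The 33 libraries held 32.3 to 37.96 M counts each. Markers of the line were present in all of them, with vimentin (VIM) at 702 to 1555 CPM (counts scaled by library size to a common total), while markers of kidney tubule, podocyte, blood, fibroblast and liver cells reached at most 0.41 CPM. In bulk RNA, fewer cells that make a message and less message per cell cannot be told apart.

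Vehicle library 1 stood apart, and members were higher in it almost without exception. Members took 5.13% of its counts, against 4.09% and 4.16% in vehicle libraries 2 and 3 and 4.04% to 4.81% in the 30 treated libraries. In it, 82 of the 83 tested members lay above their own mean over all libraries, and 42 had their highest value. The median log2 deviation from the gene's mean was 0.27 for the large and 0.30 for the small subunit there. Genes outside the set moved with them: 77 mitochondrial ribosomal protein genes had a median of 0.24, 608 other genes with a transcript under 1 kb had 0.30, and 5486 other genes with a transcript over 4 kb had -0.23. The median length of the members' MANE Select transcripts (the reference transcript of each gene) was 785 bases, against 3411 for the other genes. What set this library apart was not tested. The calls of members against vehicle are therefore given with it, without it, and with a scaling factor that follows transcript length, fitted on genes outside the set.

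**Figure D1:**
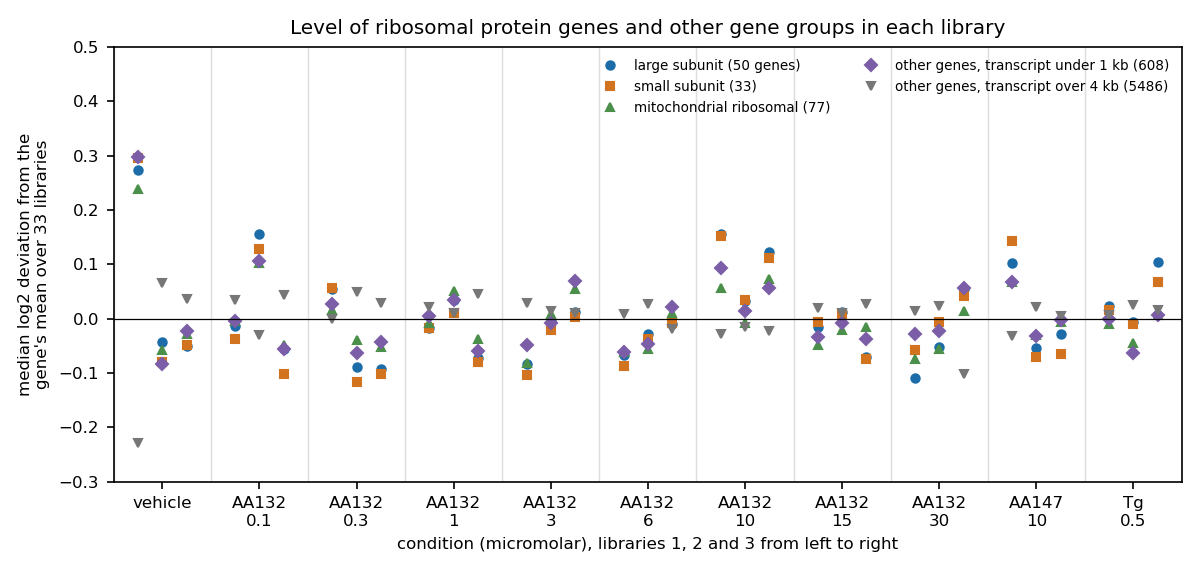
Median log2 deviation from each gene's mean over the 33 libraries (y axis) in every library (x axis, 3 libraries per condition) for large and small subunit genes, mitochondrial ribosomal protein genes, and other genes with short or long transcripts. Vehicle library 1 is the highest for both subunits, at 0.27 and 0.30, together with other short genes at 0.30 and opposite to long genes at -0.23.

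Among treated libraries, the highest members' medians were 0.15 and 0.12 in AA132 10 µM libraries 1 and 3, 0.14 in AA132 0.1 µM library 2 and 0.11 in AA147 library 1. The lowest was -0.10 in AA132 0.3 µM library 2. In these libraries too, genes with short transcripts lay on the same side of 0 as the members, with medians from -0.06 to 0.11. In the plot of library medians, the large and the small subunit lie close together in each library.

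The start of the message is what most members share beyond their names. RefSeq start sites (GRCh38.p14) were given for 70 of the 87 members, and a window of 30 bases, 10 before and 20 from the start, was read for each on the strand of the gene. A run was counted where a C was followed by C or T for at least 5 bases in all and where it overlapped the span from 5 bases before to the sixth base from the start. It was found in 54 of the 70 windows (77.1%), against 27.0% of 27305 windows over all genes and 26.1% of 69 windows of mitochondrial ribosomal protein genes. Large and small subunit members were alike in this, at 78.6% and 75% (33 of 42 and 21 of 28). Runs were 5 to 23 bases long, with a median of 11. Among the paralogues 2 of 7 windows held a run, and among the remaining members 52 of 63 did (82.5%). The windows printed are those of the members that Tg changed (values follow), then those of a pair of paralogues, with the run in capitals.
RPS27, chr1:153990752-153990781, plus strand: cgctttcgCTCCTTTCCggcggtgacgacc
RPL22L1, chr3:170870176-170870205, minus strand: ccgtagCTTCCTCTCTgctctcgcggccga
RPL12, chr9:127451387-127451416, minus strand: cgatttccggCCTCTCggctttcggctcgg
RPLP0, chr12:120201092-120201121, minus strand: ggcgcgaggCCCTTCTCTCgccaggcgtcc
RPL10A, chr6:35468391-35468420, plus strand: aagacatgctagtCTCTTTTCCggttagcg
RPL7A, chr9:133348208-133348237, plus strand: attCCCTTTCCTTTCTCTCTCCTCCCgccg
RPS10, chr6:34426050-34426079, minus strand: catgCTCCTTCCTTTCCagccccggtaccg
RPL22, chr1:6199576-6199605, minus strand: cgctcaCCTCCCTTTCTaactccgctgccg
RPS9, chr19:54200848-54200877, plus strand: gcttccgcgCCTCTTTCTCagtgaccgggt
RPL29, chr3:51995876-51995905, minus strand: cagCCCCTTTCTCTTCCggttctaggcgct
RPS15, chr19:1438386-1438415, plus strand: aggcgcggaccaaagcgatctcttctgagg
RPS27A, chr2:55231893-55231922, plus strand: agtgacacacaagacccagactcttcccta
RPS27L, chr15:63157458-63157487, minus strand: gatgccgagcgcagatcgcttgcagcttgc
RPL7L1, chr6:42879606-42879635, plus strand: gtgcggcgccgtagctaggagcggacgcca

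Of the 13 members called for Tg, 12 had a window and 10 of these held a run by the rule above. RPS15 and RPS27A held none that overlapped the span around the start. Their windows do hold stretches of C and T further downstream, which the rule does not count. RPL23 had no window. The first 5 sequences belong to members that were higher and the next 7 to members that were lower, and the run is found in both groups. RPL7A has the longest run among the 70 members with a window, at 23 bases. The paralogues RPS27L and RPL7L1 show no run in these windows.

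Levels were compared between members per kilobase of MANE Select transcript. In vehicle RPS4X was among the highest small subunit members, with 2168 ± 176 CPM per kb (SD, n = 3). The highest large subunit members were RPL27 with 2132 ± 307, RPL18 with 1716 ± 347 and RPL35 with 1478 ± 294. Medians per kb over the tested members were 225 CPM for the large and 547 for the small subunit.

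Some standard proteins of the ribosome had very low values. RPS28 had 2.10 ± 0.09 CPM per kb in vehicle, RPL21 had 2.91 ± 0.76, RPS27 had 7.13 ± 0.89 and RPS26 had 9.12 ± 1.05, about as low as the paralogues RPL39L (3.95 ± 0.26) and RPL22L1 (4.38 ± 0.13). GENCODE v44 lists 133 pseudogenes named after RPL21, 36 after RPS26, 30 after RPS27 and 5 after RPS28, against a median of 12 over the members. The rank correlation between level per kb and number of pseudogenes was -0.15 over the 83 members, which share libraries and depth. How reads that fit several copies were assigned is not given in the sources used here, so values of members with many copies are uncertain.

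Members with a named role were mostly abundant. RPS6, the small subunit protein phosphorylated by S6 kinase, had 2769 ± 258 CPM in vehicle (SD, n = 3) and stayed between 2330 and 3057 CPM over the 33 libraries. RPL5 and RPL11, which with 5S ribosomal RNA can bind MDM2, had 1094 ± 64.3 and 1071 ± 154 CPM. RPL3 and RPL4, large subunit proteins that reach deep into its core, had 1264 ± 196 and 1153 ± 153 CPM. RPS3, at the entry of the mRNA channel, had 1425 ± 289 CPM, and RPS19, often mutated in Diamond-Blackfan anaemia, had 1538 ± 279. RPSA, also known as the laminin receptor, had 234 ± 35.2 CPM. The stalk proteins RPLP1 and RPLP2, which recruit translation factors, had 644 ± 119 and 518 ± 103 CPM, and RPL10, which joins the large subunit last, had 190 ± 19.3. FAU, made as a fusion with a ubiquitin-like protein, had 355 ± 56 CPM. RPL41, the smallest ribosomal protein, had 24.6 ± 2.74 CPM. Vehicle library 1 was the highest vehicle library for each of these members. FAU, for example, had 419 CPM there and 315 and 331 in the other vehicle libraries.

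Over all libraries the tested members varied by a median factor of 1.52 between their highest and lowest library, from 1.14 for RPL7L1 to 2.47 for RPS26. The pooled SD within conditions was 0.13 on the log2 scale (median of the members), against 0.16 for all tested genes and 0.09 for the 363 genes at or above the members' median level. Vehicle library 1, which held the highest value of 42 tested members, enters both the ranges and the pooled SD. Neither is given without it. RPL7L1, a paralogue known from ribosome assembly, was the least variable member at 0.04, with 515, 519 and 517 CPM in vehicle libraries 1 to 3.

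Across conditions the members' share of counts differed little. It was 4.46% ± 0.58 in vehicle (SD, n = 3), 4.31% ± 0.15 with Tg, 4.28% ± 0.28 with AA147, and between 4.19% and 4.32% at every AA132 dose except 10 µM, where it was 4.59% ± 0.23. Large and small subunit members took near-equal shares, 2.19% ± 0.29 and 2.27% ± 0.29 in vehicle. The ratio of large to small ran from 0.939 ± 0.008 at 30 µM AA132 to 0.983 ± 0.017 at 1 µM, with 0.966 ± 0.009 in vehicle and 0.968 ± 0.016 with Tg. Its values at 30 µM were 0.948, 0.932 and 0.937, all below those in vehicle (0.975, 0.957 and 0.967). They were also below those with Tg (0.953, 0.986 and 0.964). They overlap those with AA147 (0.945, 0.952 and 0.968) and those at 10 and 15 µM AA132. The difference in this ratio was not tested.

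The medians of the log2 fold changes against vehicle were small for both subunits, and their sign followed vehicle library 1. All 10 comparisons share the vehicle libraries. With 3 vehicle libraries the median was below 0 in 9 of 10 comparisons for either subunit, from -0.12 to 0.04 for the large and -0.12 to 0.05 for the small. Without vehicle library 1 it was above 0 in all 10, from 0.01 to 0.16 and from 0.01 to 0.18. With length-dependent scaling it ran from -0.10 to 0.03 for the large and from -0.06 to 0.03 for the small subunit. The median over all tested genes lay between -0.0023 and 0.0099 in the comparisons with all vehicle libraries. Scaling on the members alone set the members' medians to between -0.03 and 0.02, and it moved the median over all genes to 0.10 at both 0.3 and 6 µM AA132.

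**Figure D2:**
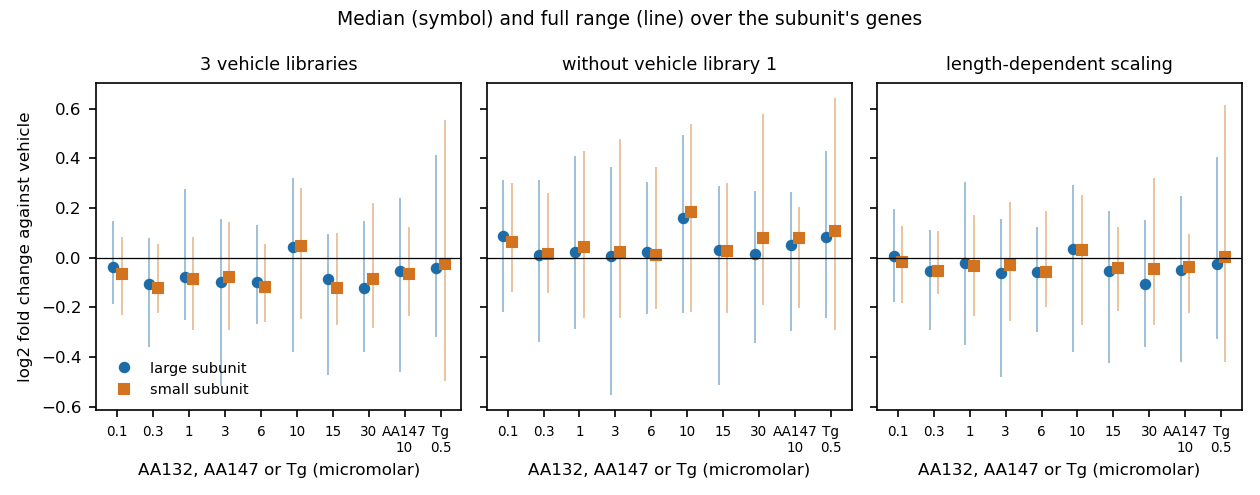
Log2 fold change against vehicle (y axis) for each treatment (x axis, concentration in µM), with the median (symbol) and the full range (line) of the 50 large and 33 small subunit genes, in 3 fits. The medians stay within -0.12 to 0.05 with all vehicle libraries, move above 0 without vehicle library 1, and lie between -0.10 and 0.03 with length-dependent scaling.

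With all vehicle libraries, Tg changed a minority of members, in both directions, and left the set's median near 0. At an adjusted p under 0.05, 13 of 83 members were called (15.7%), 5 higher and 8 lower, where 31.2% of all 17793 tested genes were called (16.2% higher and 15% lower). The large subunit had 4 higher and 4 lower of 50 and the small subunit 1 higher and 4 lower of 33. Large subunit members had a median log2 fold change of -0.04 and small subunit members one of -0.02. Without vehicle library 1 these medians were 0.08 and 0.11, and 59 of the 83 members lay above 0. For 10 of the 13 called with all vehicle libraries, the libraries of the groups did not overlap. These 13 had been picked by the test, and the share without overlap over all genes was not computed. Called members changed by at most 0.56 on the log2 scale in either direction.

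Which members passed depended on vehicle library 1 and on scaling. Without vehicle library 1, 13 members were higher and 1 lower (28.4% of all genes called). Length-dependent scaling gave 8 higher and 12 lower (33.8% of all genes) with all vehicle libraries, and 8 higher and 6 lower (29.5%) without library 1. Upper quartile scaling gave 1 higher and 13 lower (32.2% of all genes), and scaling on the members alone gave 6 higher and 9 lower (21.6%). RPS27, RPL10A and RPLP0 were higher and RPL7A lower in all 4 fits with or without library 1 and length-dependent scaling. Of these, RPL7A passed in all 6 fits that left out 1 library and RPS27 in 5 of 6, but RPL10A and RPLP0 each in 1 of 6, and RPL10A passed in 7 and RPLP0 in 5 of 11 other settings. RPL29, RPS10, RPS15 and RPS27A were lower in both length-dependent fits and in the fit with 3 vehicle libraries. No called member changed sign in any of the alternatives.

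**Figure D3:**
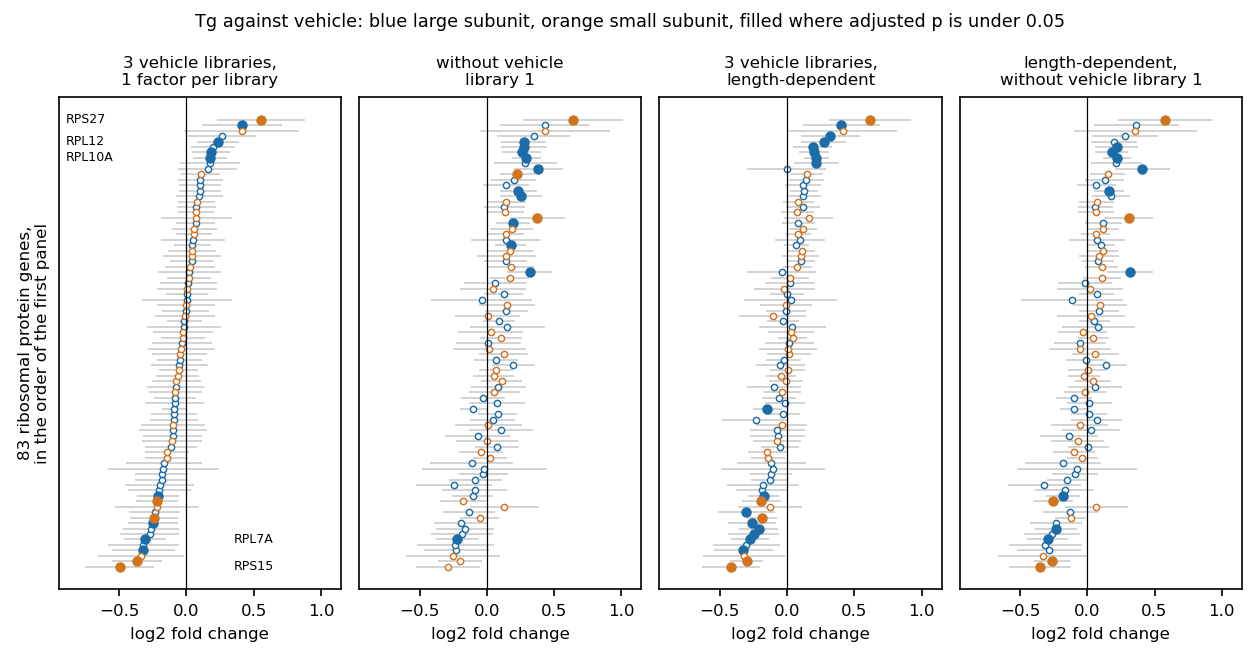
Log2 fold change of Tg against vehicle (x axis, with 95% intervals as lines) for the 83 tested members (y axis, the same order in all panels) in 4 fits; filled symbols are called. The order is set by the first panel, where RPS27 is at the top and RPL7A and RPS15 near the bottom. RPS27 lies above 0 and RPL7A and RPS15 below 0 in each panel, while most members lie near 0 and shift to the right when vehicle library 1 is left out.

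RPL7A, a large subunit protein near the base of the subunit, gave the steadiest fall (chr9:133348218-133351426 in GENCODE v44). It had 499.8, 422 and 406 CPM in vehicle libraries 1 to 3 and 348, 350.2 and 375 CPM in the Tg libraries. All 3 Tg libraries lay below all vehicle libraries. It fell by 0.31 ± 0.08 on the log2 scale (SE, adjusted p = 0.0033), and passed when any single library was left out.

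RPS15, a protein of the small subunit's head (chr19:1438358-1440495), had 264, 172 and 187 CPM in vehicle and 151, 149.7 and 141 with Tg. The groups did not overlap, and the Tg libraries were the lowest of all 33, since every other library had 156 CPM or more. It fell by 0.50 ± 0.13 (SE, adjusted p = 0.0036). The log2 fold change was -0.29 ± 0.12 without vehicle library 1, with an adjusted p of 0.070.

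RPS10, a small subunit protein that is ubiquitylated when ribosomes collide (chr6:34417454-34426069), had 395, 279 and 290.1 CPM in vehicle and 240.4, 252 and 256 with Tg. It fell by 0.37 ± 0.10 (SE, adjusted p = 0.0032). Without vehicle library 1 the log2 fold change was -0.20 ± 0.08, with an adjusted p of 0.079. The read-through gene RPS10-NUDT3, which overlaps it, had 107 ± 21.4 CPM in vehicle and 83.1 ± 2.71 with Tg, so the counts of RPS10 are uncertain.

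RPS27, a small subunit protein with a zinc finger (chr1:153990762-153992155), was the member with the largest rise. It had 2.83, 2.50 and 2.20 CPM in vehicle and 3.50, 3.93 and 3.62 with Tg. No library of another condition exceeded 2.88 CPM. It rose by 0.56 ± 0.17 (SE, adjusted p = 0.0099), on few counts, at most 144 in a library.

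RPL12, at the base of the stalk, had 85.2, 83.4 and 72.2 CPM in vehicle and 97.1, 86.6 and 99.6 with Tg, a rise of 0.23 ± 0.08 (SE, adjusted p = 0.025). RPLP0, the protein that anchors the stalk to the ribosome, had 474, 402 and 404 CPM in vehicle and 477, 479.6 and 498 with Tg, a rise of 0.18 ± 0.07 (SE, adjusted p = 0.049). All 3 Tg libraries of RPLP0 lay above all other libraries, of which the highest had 474 CPM. RPL10A, which forms the stalk on the other side of the subunit, had 443, 340.9 and 355 CPM in vehicle and 429.97, 429.6 and 424 with Tg. Its groups overlapped through vehicle library 1, and it rose by 0.17 ± 0.06 (SE, adjusted p = 0.041), or by 0.29 ± 0.06 without that library (adjusted p = 8.15e-05).

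Of the other members that were lower, RPL23 had 966 ± 66.2 CPM in vehicle and 814 ± 31.9 with Tg (SD, n = 3). RPL29 had 319 ± 42.2 and 275 ± 15.7 CPM. RPS9, at the entry of the mRNA channel, had 527 ± 116 and 446 ± 18.8 CPM, and its groups overlapped. RPS27A, made as a fusion with ubiquitin, had 119 ± 14.0 and 102 ± 4.73 CPM, and it overlapped too. None of these 4 passed without vehicle library 1 and with 1 scaling factor per library, while RPL29 and RPS27A passed without it under length-dependent scaling.

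**Figure D4:**
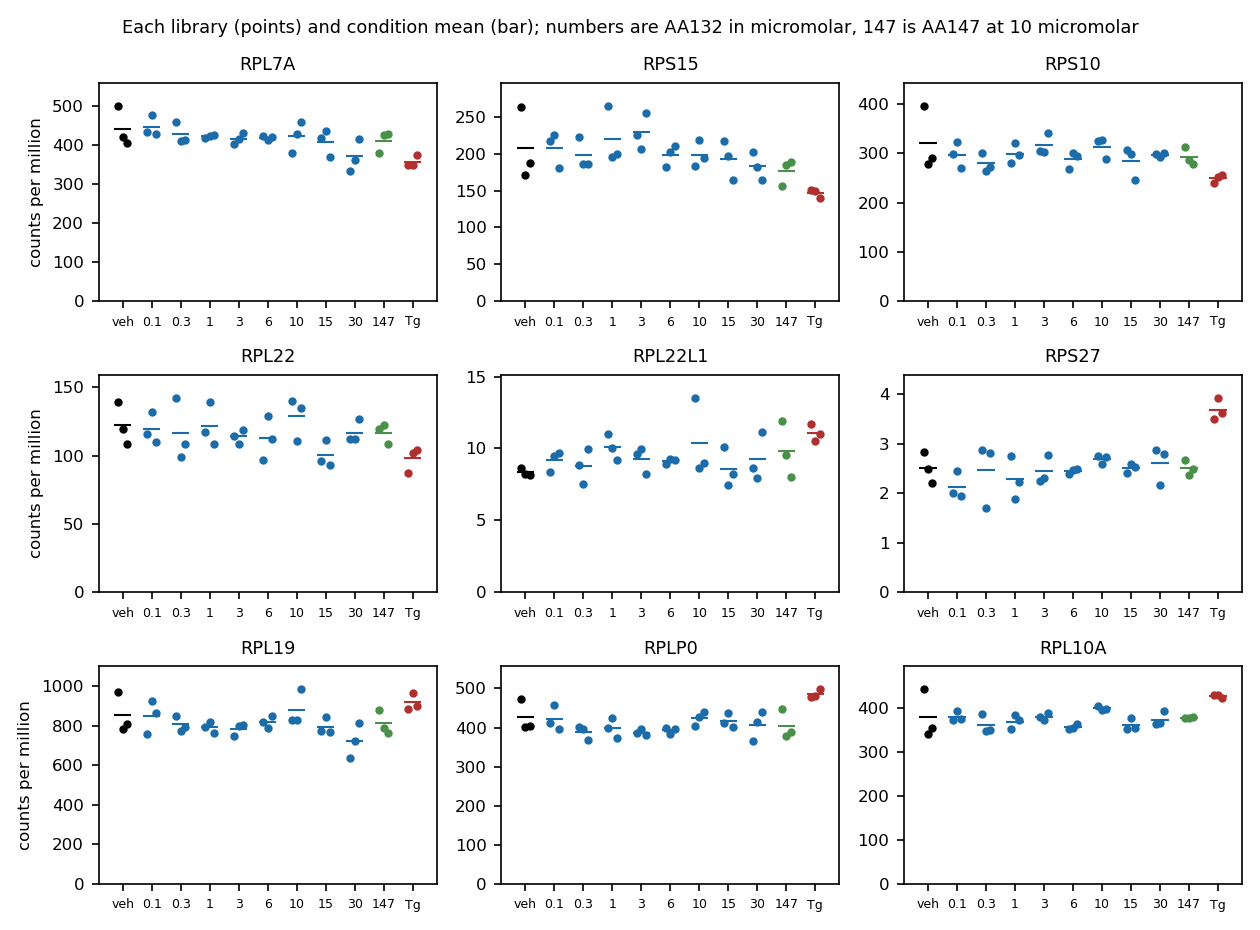
CPM (y axis, from 0) of 9 members in each library (points) and the condition mean (bar), with conditions on the x axis. RPL7A, RPS15 and RPS10 are lowest or near-lowest with Tg and RPS27 is highest with Tg, at 3.50 to 3.93 CPM, while RPL19 has its lowest mean at 30 µM AA132.

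Some members are paralogues with a parent of related sequence. RPL22L1 can replace RPL22 in the large subunit, and with Tg the pair was called in opposite directions. RPL22 (chr1:6185020-6209389) had 139, 119 and 109 CPM in vehicle and 87.6, 102 and 104 with Tg, a fall of 0.32 ± 0.12 (SE, adjusted p = 0.038). RPL22L1 (chr3:170864875-170870208) had 8.62, 8.20 and 8.19 CPM in vehicle and 11.7, 10.5 and 11 with Tg, a rise of 0.41 ± 0.15 (SE, adjusted p = 0.037). The log2 ratio of RPL22L1 to RPL22 counts was -3.13 ± 0.21 with Tg and -3.86 ± 0.14 in vehicle (SD, n = 3), and no Tg library overlapped a vehicle library. Single libraries of other conditions reached as high, with RPL22L1 at 13.5 CPM in AA132 10 µM library 1 and 11.9 in AA147 library 1. The rise of RPL22L1 was lost in each of the 6 fits that left out 1 library, with its sign kept. The fall of RPL22 passed in 3 of those 6, and without vehicle library 1 its adjusted p was 0.19, or 0.073 with length-dependent scaling as well.

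RPS27L, a target of p53 that can replace RPS27, had 76.8 ± 3.38 CPM in vehicle and 76.2 ± 2.08 with Tg while RPS27 rose. The log2 ratio of RPS27L to RPS27 counts was 4.91 ± 0.18 in vehicle, 4.35 ± 0.12 with Tg and 5.04 ± 0.31 at 30 µM AA132. RPS27 itself had only 2.51 ± 0.31 CPM in vehicle. The log2 ratio of RPL7L1 to RPL7 was 4.79 ± 0.20 in vehicle (SD, n = 3), so that parent also had fewer counts than its paralogue. How reads that fit several copies were assigned is not given, so these ratios are uncertain. RPL7L1, RPL26L1 and RPL39L passed in none of the comparisons with TMM scaling and all libraries. RPL26L1 had 20.8 ± 1.3 CPM in vehicle and 17.3 ± 2.0 at 30 µM AA132, where its parent RPL26 had a log2 fold change of -0.24 ± 0.11 (SE, adjusted p = 0.22). RPL39L stayed between 1.53 and 3.15 CPM.

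Of the members named for a fixed role, none but RPLP0 and RPS27A passed with Tg in the fit with all vehicle libraries. RPS6 had a log2 fold change of 0.08 ± 0.07 (SE), RPL5 of 0.10 ± 0.08, RPL11 of -0.05 ± 0.09 and RPS19 of 0.02 ± 0.08. RPL10 had 0.20 ± 0.08 (adjusted p = 0.073), and it passed without vehicle library 1 and in both length-dependent fits. The precision sets what could be seen: the median half-width of the 95% interval (from the SE) was 0.19, and for 72 of 83 members the interval lay within -0.5 to 0.5.

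AA147 at 10 µM changed no member past the threshold. None of 83 was called by edgeR, where 0.0225% of all tested genes were called (0.00562% higher). Before adjustment 2 members had an edgeR p under 0.05, and no share over all genes is given for that threshold. Median log2 fold changes were -0.05 for the large and -0.07 for the small subunit with all vehicle libraries and 0.05 and 0.08 without library 1, where again no member was called (0.0608% of all genes, 0.0276% lower). Length-dependent scaling called none either, with or without library 1 (0.0281% and 0.0387% of all genes). For 80 of 83 members the 95% interval lay within -0.5 to 0.5.

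AA132 from 0.1 to 10 µM gave 0 called members at each of 6 doses in the edgeR test. Over all genes, 0% were called at the 3 lowest doses, 0.118% at 3 µM, 1.07% at 6 µM (0.866% higher), and 1.41% at 10 µM. Before adjustment 1, 7, 4, 8, 9 and 3 members had an edgeR p under 0.05 at 0.1, 0.3, 1, 3, 6 and 10 µM. The share of all genes under that unadjusted threshold is not given, so these counts cannot be read as a result about the members. At 6 µM 80 of the 83 members had a log2 fold change below 0, and at 10 µM 27 did. Without vehicle library 1 those at 6 µM numbered 35 and those at 10 µM 7. In that fit 5 members were higher at 10 µM (3.6% of all genes called): RPS21, RPL37, RPS29, RPL28 and RPL10A, the first with 0.54 ± 0.11 (SE, adjusted p = 0.0023). RPS21 had 149, 139.8 and 155 CPM at 10 µM, and 101 and 103 in vehicle libraries 2 and 3, against 174 in vehicle library 1. No member was called at the 5 lower doses without vehicle library 1. Length-dependent scaling with all vehicle libraries called no member at these 6 doses. Length-dependent scaling without library 1 called RPS27A lower at 3 and 6 µM, RPS21 higher at 6 µM, and RPS21 and RPL37 higher at 10 µM (0.63%, 2.78% and 2.36% of all genes called at these doses). These members are named after their values were seen.

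At 15 µM AA132 1 member was lower, where 2.76% of all genes were called (1.97% higher). RPL36A, a large subunit protein at the exit site for tRNA, had 9.39, 10.9 and 9.41 CPM in vehicle and 6.18, 7.27 and 8.0 at 15 µM. It fell by 0.47 ± 0.13 (SE, adjusted p = 0.046). It passed in 1 of 6 fits that left out 1 library, the one without vehicle library 1 (adjusted p = 0.040). With length-dependent scaling the adjusted p was 0.074, or 0.016 without vehicle library 1, where RPS27A was lower too (3.69% of all genes called). It overlaps the read-through gene RPL36A-HNRNPH2 and has 52 named pseudogenes, so its counts are uncertain.

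At 30 µM AA132 3 members of the large subunit were lower and none higher, where 7.05% of all genes were called. RPL23A, at the exit of the peptide tunnel, had 149.9, 129.7 and 119 CPM in vehicle and 88.5, 97.4 and 120.3 at 30 µM, and the groups overlapped. It fell by 0.38 ± 0.11 (SE, adjusted p = 0.033). RPL29 had 368, 292 and 298 CPM in vehicle and 258, 261 and 265 at 30 µM, without overlap, and fell by 0.29 ± 0.08 (SE, adjusted p = 0.022). RPL7A had 335, 362 and 417 CPM at 30 µM, overlapping vehicle, and fell by 0.25 ± 0.08 (SE, adjusted p = 0.0495).

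The same 3 were lower in both length-dependent fits (9.53% and 10.8% of all genes called), and without vehicle library 1 that scaling also called RPL13A, RPL37 and RPS29 higher. Without vehicle library 1 and with 1 scaling factor per library none of them passed, and RPL13A, RPS13 and RPS29 were higher instead (11.1% of all genes called). RPS29, a zinc-binding protein of the head, had 49.3, 42.2 and 41.7 CPM at 30 µM, 29.7 and 29.8 in vehicle libraries 2 and 3 and 54.8 in vehicle library 1. Leaving out AA132 30 µM library 1 or 2 left 0 called members, and no share over all genes is given for these fits. AA132 30 µM library 1 held the lowest value of 16 members. Members not called for Tg or 30 µM AA132 had log2 fold changes of both signs, and the median at 30 µM was -0.12 for the large and -0.09 for the small subunit.

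The slope on log10 dose over the 24 AA132 libraries does not use vehicle. It passed for 4 of 83 members, 2 up and 2 down, where 18.7% of 17554 genes passed (9.83% up and 8.89% down). RPL13A, a large subunit protein also known from a complex that silences inflammatory messages, rose by 0.07 ± 0.02 on the log2 scale per 10-fold dose (SE, adjusted p = 0.022). Its means were 241 ± 12.4 CPM at 0.1 µM, 219.6 ± 4.78 at 0.3 µM and 266 ± 13.0 at 30 µM (SD, n = 3). RPS27L rose by 0.10 ± 0.03 (SE, adjusted p = 0.039), from 76.9 ± 8.95 CPM at 0.1 µM to 93.3 ± 16.2 at 10 µM and 87.7 ± 6.31 at 30 µM. RPL38, a large subunit protein whose loss alters translation of Hox messages, fell by 0.14 ± 0.04 (SE, adjusted p = 0.015), with means of 242 ± 41.5 CPM at 0.1 µM and 178 ± 27.7 at 30 µM. RPL7A fell by 0.07 ± 0.02 (SE, adjusted p = 0.031), from 446 ± 27.4 to 371 ± 41.9 CPM. With length-dependent scaling RPS27L, RPL38 and RPL7A passed, and RPL13A had an adjusted p of 0.086. None of the 4 slopes passed without the 30 µM dose, where 11.7% of all genes did. The median slope was -0.0014 for the large and 0.01 for the small subunit.

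**Figure D5:**
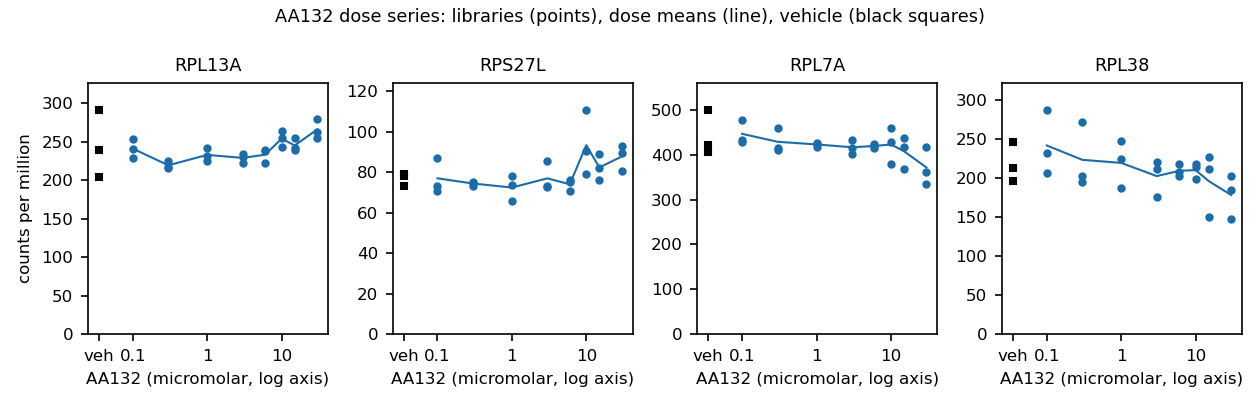
CPM (y axis, from 0) against AA132 concentration (x axis, log scale) for the 4 members whose slope passed, with libraries as points, dose means as a line and vehicle as squares at the left. RPL13A and RPS27L are higher and RPL7A and RPL38 lower at 30 µM than at 0.1 µM, and libraries of neighbouring doses overlap.

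AA132 and AA147 were both given at 10 µM for 6 h, the 1 pair that can be compared at a matched dose. No member was called between them by edgeR, where 0.0674% of all genes were (0.0562% higher). Before adjustment 12 members had an edgeR p under 0.05, with no share over all genes given for that threshold. Of the 83, 71 were higher with AA132, with a median log2 difference of 0.09 for the large and 0.11 for the small subunit. AA132 10 µM libraries 1 and 3 and AA147 library 1 were among those with high levels of members and other short genes, and with scaling on the members alone the large subunit's median was -0.018 and that of all genes -0.10. The half-width of the 95% interval had a median of 0.19, and for 72 of 83 members the interval lay within -0.5 to 0.5, with an upper bound of 0.71 at most.

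AA132 at 30 µM and Tg at 500 nM differ in dose and agent. Between these conditions 10 of 83 members were called, 2 higher and 8 lower with AA132, where 29.8% of all genes were called. RPL19, a large subunit protein that bridges to the small subunit, had 638, 722 and 815 CPM with AA132 and 884, 967 and 901 with Tg, without overlap, a difference of -0.34 ± 0.09 (SE, adjusted p = 0.0023). It passed in all 10 other settings and when any single library was left out. It did not pass against vehicle, where it had 973, 783 and 808 CPM, in either condition.

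Members also lower with AA132 than with Tg were RPS27 (-0.49 ± 0.17), RPLP0 (-0.25 ± 0.07), RPL12 (-0.24 ± 0.08), RPS18 (-0.23 ± 0.09), RPL3 (-0.23 ± 0.07) and RPL10A (-0.19 ± 0.06), given as log2 difference ± SE. RPS29 (0.44 ± 0.16) and RPS10 (0.25 ± 0.10) were higher. In the 6 fits that left out 1 library RPS10 passed in 0, RPS29 in 2, RPL10A and RPS18 in 1 each, RPL12 in 2, RPS27 and RPL3 in 3 each and RPLP0 in 4. Among the 10, only RPL12 overlapped between the groups, and the share over all called genes was not computed. The split was 4 higher and 4 lower with upper quartile scaling, 8 and 4 with scaling on the members alone, and 5 and 13 with length-dependent scaling (30%, 22.4% and 32.3% of all genes called).

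Genes around the ribosome, listed by function, were read in the same fits. Of 50 ribosome biogenesis factors, which process ribosomal RNA and assemble the subunits, 17 were lower and 0 higher at 30 µM AA132. Over all genes the shares there were 3.19% and 3.86%. Without vehicle library 1, 13 were lower and 0 higher, beside 5.59% and 5.55% of all genes. With all vehicle libraries PES1, needed for maturation of the large subunit, fell by 0.39 ± 0.07 at 30 µM (SE, adjusted p = 0.00026). Its level went from 376 ± 38.1 to 288 ± 21.8 CPM (SD, n = 3). RRS1 fell by 0.39 ± 0.10 (SE, adjusted p = 0.011). The list's median log2 fold change was -0.15, beside -0.10 for the members and -0.0013 for all genes. On the dose slope 18 of the 50 fell and 1 rose, where 8.89% and 9.83% of all genes did. With Tg 9 rose and 10 fell, shares close to the 16.2% and 15% of all genes, among them SBDS, which releases eIF6 from the new subunit, with a rise of 0.44 ± 0.06, and UTP20, with a fall of 0.47 ± 0.10 (SE).

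Of 14 genes of the RNA polymerase I machinery, which makes ribosomal RNA, 3 rose and 2 fell with Tg, shares close to the 16.2% and 15% of all genes. TAF1D rose by 1.05 ± 0.12 and TAF1A by 0.79 ± 0.12, both parts of the promoter-binding factor SL1, while CD3EAP fell by 1.03 ± 0.15 and UBTF, the upstream binding factor, by 0.46 ± 0.05 (log2, SE). At 30 µM AA132 UBTF was the only one called (7.05% of all genes), with a fall of 0.19 ± 0.05. Without vehicle library 1 none was (11.1% of all genes).

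Among 15 TOP messages that encode no ribosomal protein, 3 rose and 0 fell with Tg, where 16.2% and 15% of all genes did. TPT1 rose by 0.38 ± 0.09, from 797 ± 77 to 1040.0 ± 61.3 CPM, and PABPC1, the poly(A)-binding protein, by 0.24 ± 0.06. With all vehicle libraries 5 of 15 were above 0 and the list's median was -0.04. The median was 0.05 without vehicle library 1, where 8 were above 0. In that fit 4 rose and 0 fell, beside 14.1% and 14.3% of all genes. None passed at 30 µM AA132, where 7.05% of all genes were called. Of 16 regulators of TOP messages and mTOR, 5 rose with Tg and 0 fell, beside 16.2% and 15% of all genes. Without vehicle library 1, 7 rose and 0 fell, beside 14.1% and 14.3%. With all vehicle libraries the largest rises with Tg were those of DDIT4 and SESN2, both inhibitors of mTOR complex 1. They rose by 2.36 ± 0.13 and 2.34 ± 0.09 with Tg, and by 0.57 ± 0.13 and 0.72 ± 0.09 at 30 µM AA132 (log2, SE).

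Of 77 mitochondrial ribosomal protein genes, 3 rose and 14 fell with Tg, and 2 rose and 5 fell at 30 µM AA132, where over all genes 16.2% rose and 15% fell with Tg and 3.86% rose and 3.19% fell at 30 µM. Without vehicle library 1 the counts were 8 and 6 with Tg, beside 14.1% and 14.3% of all genes. At 30 µM they were 2 and 2, beside 5.55% and 5.59%. Of the ribosomal protein genes whose names fall outside the rule, RPL36AL, a near-identical copy of RPL36A, rose with Tg by 0.41 ± 0.11 (SE, adjusted p = 0.0034), from 56.0 ± 8.82 to 74.5 ± 13.2 CPM. RACK1, a scaffold protein on the small subunit, had 2053 ± 313 CPM in vehicle and 2068 ± 54.4 with Tg and was not called.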

How the data were processed

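The authors deposited 1 table of expected counts per gene, unscaled, for 33 libraries of 11 conditions. The build was GRCh38.p7, per the submitters' processing notes; aligner, counting tool, annotation and use of strand are not given in the sources used here. The lowest value, 0.009, fills 43.5% of cells and was set to 0. Entries that shared a name were summed, and expected counts were rounded.

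Differential expression used the quasi-likelihood test of edgeR 4.0.16 (R 4.3.3) with TMM scaling over all 17793 genes past its filter, all conditions in 1 fit, no block, and Benjamini-Hochberg adjustment over all genes, called under 0.05. CPM are TMM-scaled. The slope was fitted on log10 dose over the 24 AA132 libraries. The scripts were first tested on simulated data with known changes. Libraries within a condition differed beyond counting error, with a chi-square per degree of freedom of 4.48 to 59.4.

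Members and lists were chosen with earlier results of these data known. Named members were the 5 largest called rises and falls per main comparison at 1 CPM or more, the 3 highest and lowest per kb in each subunit, members with a fixed role and paralogues, and up to 2 called genes each way per list. RPS9, RPL36A, RPS21, RPL37, RPL28, RPS13 and RPS18 were named after their values were seen. Alternatives were other scalings, filters, tools (DESeq2 1.42.0, limma-voom 3.58.1), sample sets and a replicate block. Chosen after seeing the data were scaling on the members alone, length-dependent scaling with and without vehicle library 1, and shares without mitochondrially encoded genes under the table's own names, as none starts with MT-. Positions and lengths are from GENCODE v44, and start sites from RefSeq. Some items are not reported here.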

Additional observations from a re-analysis of the deposited data

How the results depend on the processing

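Of the results for called members, 288 of those under other settings kept their side of the threshold and 70 lost it; with 1 library left out, 156 kept it and 102 lost it, and none changed sign. For Tg against vehicle, 13 members (31.2% of all genes) became 5 with only the 2 conditions in the fit (18.6% of all genes). They became 20 with length-dependent scaling (33.8%) and 6 with a minimum log2 change of 0.25, for which no share is given. Testing without a filter on low counts called 1 member for AA132 3 µM, 1 for 10 µM, 4 for 15 µM and 8 for 30 µM. Over all genes it called 0.508%, 1.37%, 2.34% and 4.34% at these doses. Between AA132 and AA147 it called 6 members and 0.326% of all genes. At 15 µM the count was 2 with upper quartile scaling and with DESeq2 (2.79% and 5.5% of all genes). It was 0 with scaling on the members alone, with only the 2 conditions and with length-dependent scaling (1.32%, 0.279% and 4.45%). At 30 µM it was 1 with scaling on the members alone (RPL10, higher), where 3.41% of all genes were called. It was 0 with only the 2 conditions, where 0.449% were. Length-dependent scaling without vehicle library 1 gave 1, 2, 2, 2 and 6 members at 3, 6, 10, 15 and 30 µM, the last as 3 higher and 3 lower. Over all genes it called 0.63%, 2.78%, 2.36%, 3.69% and 10.8% at these doses. For 30 µM AA132 against Tg, 10 members (29.8% of all genes) became 20 with only the 2 conditions (37.6%) and 18 with length-dependent scaling (32.3%). They became 6 with the minimum change, for which no share is given. The small subunit's median was 0.043 with scaling on the members alone. That scaling gave the large subunit -0.018 between AA132 and AA147. The 4 slopes became 0 without the 30 µM dose. The minimum change of 0.25 could keep none of them, since they lay between -0.14 and 0.10 per 10-fold dose. Leaving out mitochondrially encoded genes moved the members' share to 4.48% with Tg and to 4.4%, 4.33%, 4.35% and 4.37% at 3, 6, 15 and 30 µM. The cause was not tested where no value above shows it.

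With 1 library left out, counts ran from 4 to 14 for Tg, 0 to 1 for AA132 6 µM, 0 to 5 for 10 µM, 0 to 2 for 15 µM, 0 to 5 for 30 µM, 2 to 12 for 30 µM against Tg and 2 to 5 for the slope. Of these fits, shares over all genes are given only for the one without vehicle library 1. No shared shift by library number was seen: deviations of same-numbered libraries had a median correlation of 0.00061 over 165 pairs, from -0.15 to 0.18. The labels do not say whether the numbers pair libraries. A replicate block gave 12 members for Tg, 0 at 15 µM, 2 at 30 µM, 10 for 30 µM against Tg and 4 slopes. Over all genes the shares were 31.3%, 2.73%, 7.05%, 30% and 18.8%. With 3 libraries per condition the 95% interval of a member's log2 change against vehicle with Tg had a median half-width of 0.19.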
